A study of Mus musculus with 8 samples.

Results

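The Id factors and the mediators of transforming growth factor beta (TGF-beta) and bone morphogenetic protein (BMP) signalling were followed in NIH3T3 mouse fibroblasts sorted as G0 or as G1. The set held 10 genes. They were the TGF-beta ligand genes Tgfb1, Tgfb2 and Tgfb3, the signal transducer Smad3, the inhibitory Smads Smad6 and Smad7, and Id1, Id2, Id3 and Id4. Its members were every probe set whose only gene symbol in the platform annotation is one of these, which gave 21 probe sets of the 45037 tested. Of these, 7 read the ligands, 6 the Smads and 8 the Id factors.

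TGF-beta ligands are secreted in a latent form and, once released, bind receptor kinases that phosphorylate Smad2 and Smad3. BMPs act through other receptors on Smad1, Smad5 and Smad9. Smad6 and Smad7 are induced by these signals and block the receptors. The Id genes are direct BMP targets in many cells. Id proteins have a helix-loop-helix domain but do not bind DNA, and they hold E proteins and other basic helix-loop-helix factors inactive. In fibroblasts Id1 to Id3 are known as serum-responsive genes whose proteins favour entry into the cell cycle, while TGF-beta drives matrix production.

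All cells carried mVenus-p27K-, a fluorescent fusion of a mutant of the cyclin-dependent kinase inhibitor p27, and mCherry-hCdt1(30/120), a fluorescent fusion with a fragment of the licensing factor Cdt1. They had been kept without serum and then returned to 10% serum for 5 h. The G0 group was positive for both reporters, and the G1 group was positive for Cdt1 and negative for p27. Total RNA of each group was read on 4 Affymetrix arrays, with the replicates numbered 1 to 4 in the titles. The labels do not say whether replicates were separate cultures, so the p-values speak only of the scatter among these arrays, which could be technical. They also do not say whether the transduced cells were 1 clone. Both groups had 5 h of serum, so no starved or cycling culture was compared.

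Values are log2 expression, and each probe set was deposited with its median over the 8 arrays set to 0. A value of 1 is therefore 2-fold above that probe set's own median, and no value shows whether a gene was expressed strongly, weakly or at all. The log base is not stated and was taken as 2. Because each probe set was centred, the fibroblast identity could not be checked by marker levels. Of 28 marker genes measured for fibroblasts, leukocytes, epithelium, endothelium, and muscle and fat, 0 passed in limma and 4 had an unadjusted p under 0.05, against 8.07% of all genes. Of these 4, 2 were leukocyte genes and 1 a fibroblast gene, all lower in G1, and 1 was an endothelial gene, higher in G1. Their part in the results was not tested. Labelling differed between arrays. The labels give kit protocol revision 3 for replicate 4 of each group and revision 8 for the others. The poly-A spike-in controls, added before labelling, instead read far below their own medians on 2 arrays, by title G0 replicate 3 and G1 replicate 4. Their median there was −7.12 and −6.40, against −0.14 to 0.62 on the other 6 arrays. These 2 are called the arrays without spike-in signal, though centred values cannot show that no signal was left. The labels and the spike-ins thus differ on which G0 array belongs with G1 replicate 4, and the titles of G0 replicates 3 and 4 may be exchanged, which was not tested. Replicate numbers and labelled batches are used here as the titles give them. Differences are given with the labelled batch as covariate, and where it matters also from a spike-in batch fit, in which those 2 arrays form the batch. The log2 difference is the same in both fits and only its error differs. As a mark of the size the arrays could show, the proliferation gene Mki67 differed by 3.82 (SE 0.25; limma, adjusted p = 0.0089).

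To show where Smad proteins could bind near the member genes, the start sites were searched for known Smad recognition letters. RefSeq windows of 300 bases around the transcript start (build GRCm38.p6) were used here for Id2, Id3, Id4, Smad3, Smad6, Tgfb1 and Tgfb2, and not for Id1, Smad7 or Tgfb3. Searched on both strands were the Smad palindrome GTCTAGAC, the shorter CAGA box CAGAC, which is not contained in the palindrome, and the GC-rich Smad element GGCGCC. The lines below show the matches in the BMP targets Smad6, Id2, Id4 and Id3, 5′ to 3′ on the gene's strand, with the matched letters in capitals.
Smad6 (chr9:64022045-64022074, minus strand): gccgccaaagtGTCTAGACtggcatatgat
Id2 (chr12:25096288-25096342, minus strand): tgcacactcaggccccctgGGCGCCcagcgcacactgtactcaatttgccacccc
Id4 (chr13:48260938-48261003, plus strand): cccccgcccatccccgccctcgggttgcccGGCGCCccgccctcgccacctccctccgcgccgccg
Id3 (chr4:136143625-136143689, plus strand): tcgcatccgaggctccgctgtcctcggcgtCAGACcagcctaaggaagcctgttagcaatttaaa
The palindrome in Smad6 lies across the transcript start, and 0.213% of all 32851 windows hold it. GGCGCC is in 11.9% of windows and CAGAC in 49.6%, so a match to either is common. Id3 and Tgfb2 each hold CAGAC at 2 places. The match in Id3 that is not printed lies nearer the start, 68 to 64 bases before it, on the other strand. The windows of Smad3 and Tgfb1 hold none of these letters. A match is a description of the sequence and was not tested for binding.

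None of the 10 genes changed between G0 and G1 past the threshold. Of the 21 probe sets, 0 passed at an adjusted p under 0.05 in limma, where 0.4% of all probe sets did. At an unadjusted p under 0.05 there was 1, against 7.3% of all probe sets. It was a Tgfb1 probe set with a positive difference. Differences were negative, lower in G1, in 18 of 21 probe sets, with a median of −0.39. Over all probe sets 55.0% were negative and the median was −0.06. The 8 Id probe sets were all negative, as were 5 of 6 for the Smads and 5 of 7 for the ligands. These counts rest in part on G1 replicate 2, where the members' median was −0.74, against −0.06 to 0.06 on the other G1 arrays. Without it 13 of 21 were negative (6 of 8 for the Id factors, 5 of 6 for the Smads and 2 of 7 for the ligands), with a median of −0.24. With each other array left out in turn the count ran from 14 to 19. Probe sets of 1 gene share their transcript, so these counts are not counts of independent genes. In the spike-in batch fit 0 passed in limma, where 0.788% of all probe sets did, and 3 had an unadjusted p under 0.05. Of all probe sets 11.3% did so in that fit.

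**Figure D1:**
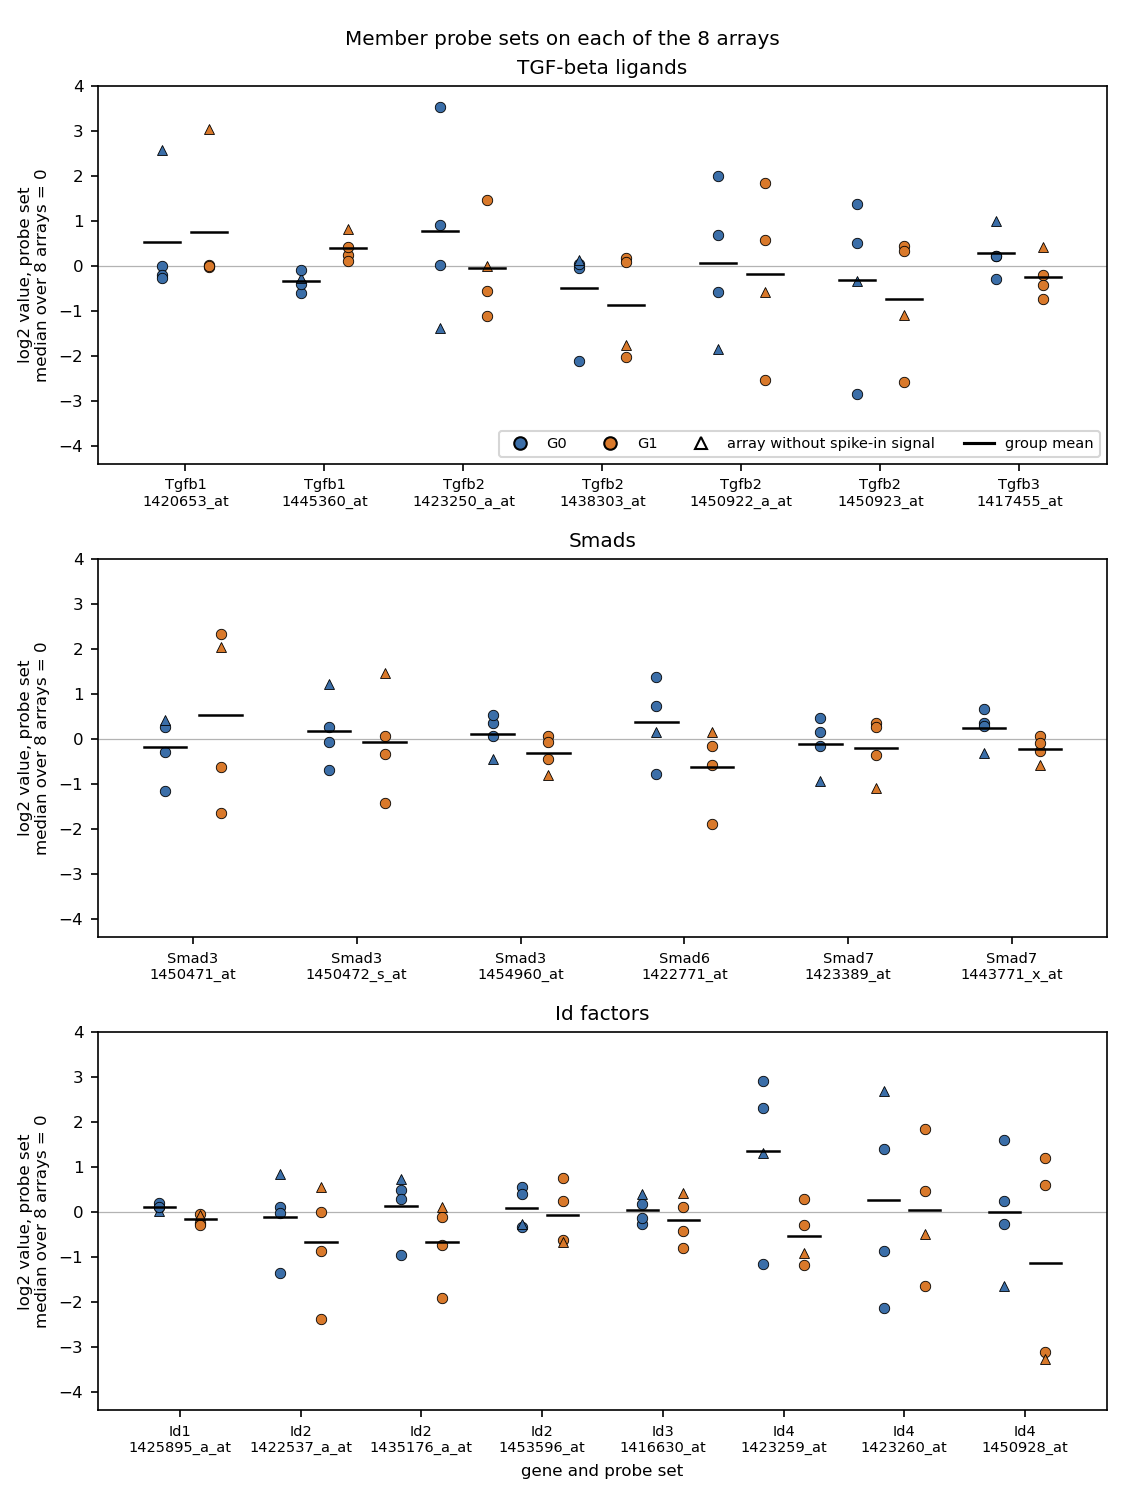
Log2 values of the 21 member probe sets on each array (y axis, probe set median 0), G0 in blue and G1 in orange, with triangles for the arrays without spike-in signal and bars for group means. The groups overlap in all but Id1, where G0 lies higher, and Tgfb1 1445360_at, where G1 lies higher.

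The groups did not overlap in 2 of the 21 probe sets, 1 in each direction (9.52%, against 6.06% of all probe sets, 3.16% higher and 2.9% lower in G1). The precision differed widely among members. The 95% confidence interval of the difference lay within 1 log2 unit, a 2-fold change either way, for Id1 and Id3 with the labelled batch as covariate. In the spike-in batch fit it did so for 7 probe sets, which added Id2 1453596_at, Smad3 1454960_at, both Smad7 probe sets and Tgfb3. For 10 of the 21 it reached past 1 unit in both directions, and for 7 in the spike-in batch fit. For these neither a 2-fold rise nor a 2-fold fall was excluded. Over all 45037 probe sets with the labelled batch, 13263 had an interval within 1 unit and 13903 one past it both ways. The median of the within-group standard deviations was 1.01 for the members and 0.70 for all probe sets.

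**Figure D2:**
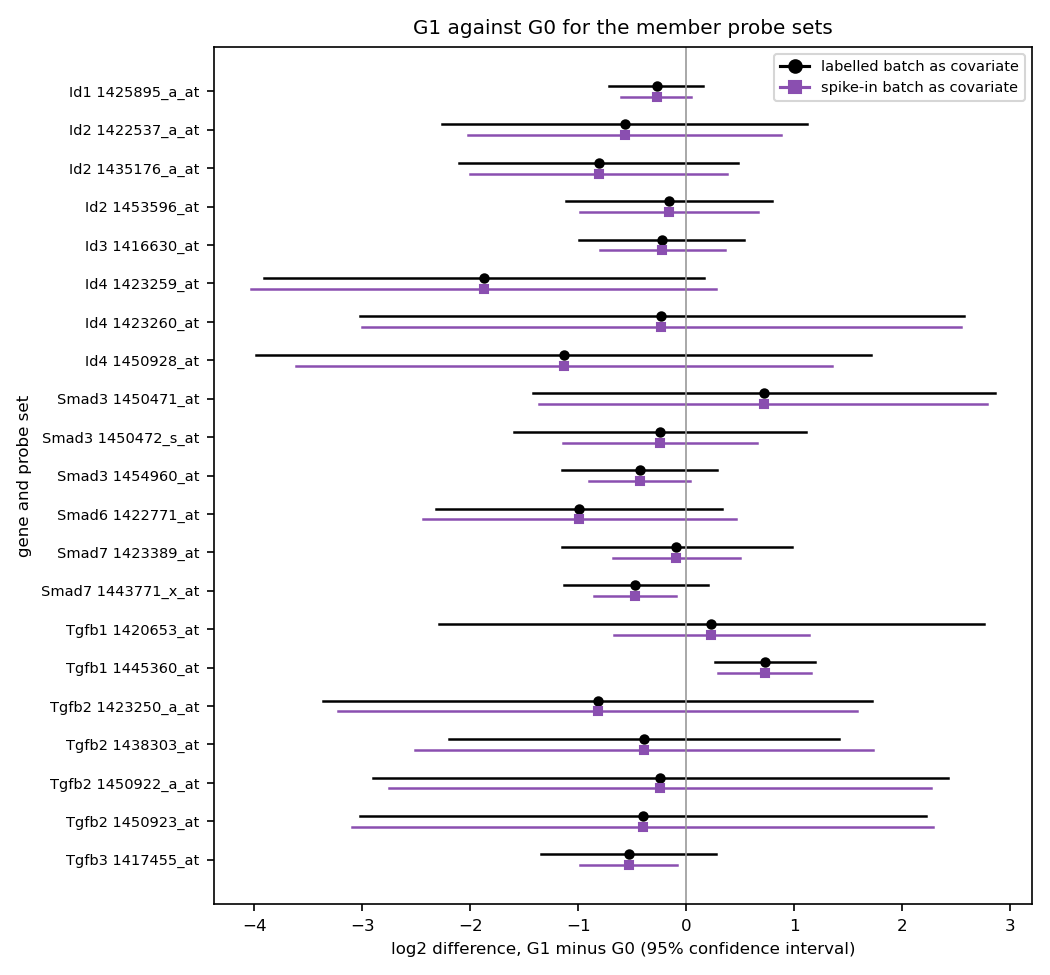
Log2 difference, G1 minus G0, of each member probe set with its 95% confidence interval (x axis), from the fit with the labelled batch (black) and with the spike-in batch (purple). All black intervals span 0 except that of Tgfb1 1445360_at (0.27 to 1.19), and in purple those of Smad7 1443771_x_at and Tgfb3 also exclude 0.

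Tgfb1, the main TGF-beta isoform, has 2 probe sets and they gave different pictures. On 1445360_at the G0 replicates 1 to 4 read −0.60, −0.40, −0.26 and −0.10, and the G1 replicates 0.24, 0.41, 0.10 and 0.82. All G1 values lay above all G0 values. The difference was 0.73, or 1.66-fold (SE 0.20, n = 4 per group; limma, adjusted p = 0.369). Inside labelled batches 1 and 2 it was 0.67 and 0.91, on the 6 arrays with spike-in signal 0.62, and between the 2 without it 1.08. The platform pairs this probe set with an expressed sequence tag, and which part of the gene it reads was not analysed here.

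The other Tgfb1 probe set, 1420653_at, is paired with a RefSeq transcript. It read 0.00, −0.21, 2.57 and −0.26 in G0 and 0.02, −0.03, 0.00 and 3.05 in G1. The arrays at 2.57 and 3.05 are the 2 arrays without spike-in signal, while the other 6 lay between −0.26 and 0.02. Of all probe sets 4.47% read more than 2 log2 units higher on those 2 arrays than on the other 6, and among the members this was the only one. The G1 minus G0 difference was 0.23 (95% confidence interval −2.29 to 2.76, adjusted p = 0.989 in limma), and the interval was −0.67 to 1.14 in the spike-in batch fit. Within the 6 arrays with spike-in signal it was 0.16, so this probe set gave no rise of the size seen on 1445360_at, though its interval does not exclude one.

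**Figure D3:**
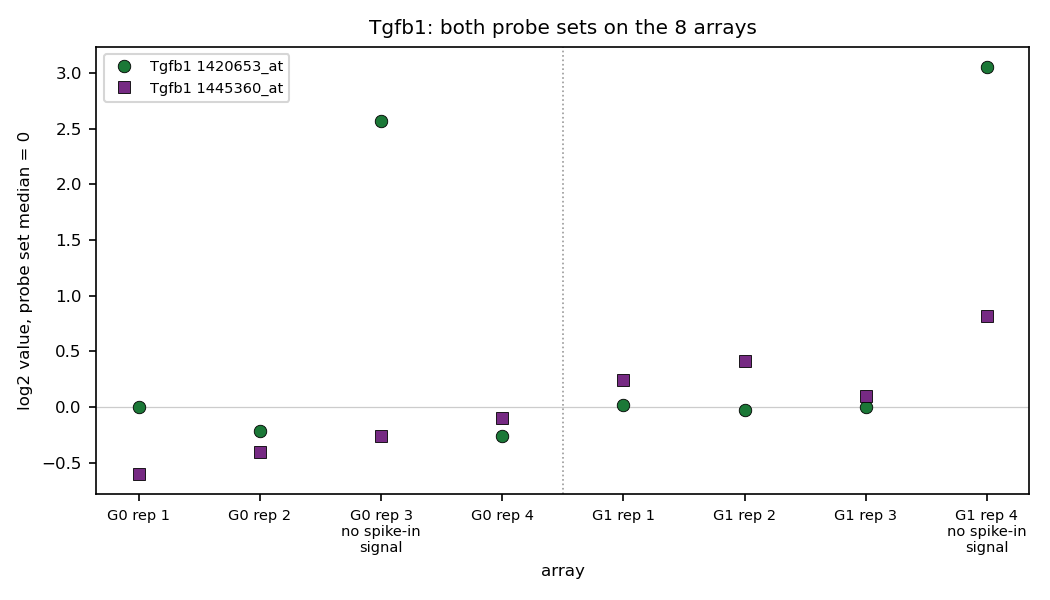
Log2 values of both Tgfb1 probe sets on the 8 arrays (x axis), probe set median 0. 1420653_at (green) stands at 2.57 and 3.05 on the arrays without spike-in signal, and 1445360_at (purple) is below 0 on all G0 arrays and above 0 on all G1 arrays.

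Tgfb3 was the most evenly measured of the other ligand genes. Its probe set 1417455_at read 0.21, −0.29, 1.00 and 0.23 in G0 and −0.21, −0.74, −0.43 and 0.42 in G1. The groups overlapped, and in each group the array without spike-in signal was the highest. The difference was −0.53 (SE 0.35; limma, adjusted p = 0.83). In the spike-in batch fit the interval was −0.98 to −0.08, but the adjusted p in limma was 0.373.

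Tgfb2, the isoform best known from development and from mesenchymal cells, could not be read. Its 4 probe sets differed by −0.82, −0.39, −0.24 and −0.40, none past the threshold (adjusted p from 0.948 to 0.989 in limma). Their values ran over several log2 units within a group, and 1423250_a_at read 0.01, 3.53, −1.37 and 0.91 in G0. The probe sets did not follow each other either. On G0 replicate 2, 1423250_a_at was at its highest and 1450923_at at its lowest, −2.84. On 1438303_at the G0 values were −0.05, 0.05 and 0.14 for replicates 1 to 3 and −2.11 for replicate 4. The within-group SD of 3 of the 4 lay above the 90th percentile of all probe sets, from 90.4 to 93.9.

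Smad3, which carries the TGF-beta signal to the nucleus, was read by 3 probe sets with no common direction. The differences were 0.72 on 1450471_at, −0.24 on 1450472_s_at and −0.43 on 1454960_at (SE 0.91, 0.58 and 0.31; adjusted p = 0.945, 0.977 and 0.852 in limma). The least variable of them, 1454960_at, read 0.35, 0.53, −0.45 and 0.07 in G0 and −0.45, 0.08, −0.07 and −0.79 in G1. Here the arrays without spike-in signal were the lowest of their groups. On 1450472_s_at those same arrays were the highest, at 1.23 and 1.46.

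Smad6, the inhibitory Smad that mainly restrains BMP signalling, had the most negative difference among the Smads. It read 1.39, −0.78, 0.15 and 0.74 in G0 and −0.15, −1.88, −0.58 and 0.15 in G1. The groups overlapped, with replicate 2 the lowest in both. The difference of −0.99, or 1.99-fold lower, did not pass (SE 0.57, 95% confidence interval −2.32 to 0.33; limma, adjusted p = 0.796).

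Smad7, the inhibitory Smad of both branches, was read by 2 probe sets that moved together over the arrays. The x_at probe set, a suffix that marks possible cross-hybridisation, read 0.36, 0.30, −0.31 and 0.67 in G0 and −0.26, 0.08, −0.08 and −0.58 in G1. Only the G0 array without spike-in signal fell among the G1 values. The difference was −0.47 (SE 0.28; adjusted p = 0.818), and its interval was −0.85 to −0.09 in the spike-in batch fit (adjusted p = 0.354; limma in both). On 1423389_at it was −0.09 (adjusted p = 0.990 in limma). There the arrays without spike-in signal read −0.93 and −1.09, the lowest of the 8.

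Id1 showed the tightest values of all members. It read 0.13, 0.20, 0.04 and 0.13 in G0 and −0.04, −0.23, −0.27 and −0.06 in G1. Every G0 value lay above every G1 value, but the step was small. The means were 0.12 ± 0.06 and −0.15 ± 0.12 (SD, n = 4), a difference of −0.27 or 1.21-fold lower in G1. It did not pass, with a 95% confidence interval of −0.71 to 0.16 (limma, adjusted p = 0.839). The limma error of 0.19 is wider than these SDs alone would give, because limma moves each probe set's variance towards that of the others and the within-group SD of Id1 was at the 0.711 percentile. The interval excluded a 2-fold change in either direction. Inside labelled batches 1 and 2 the difference was −0.30 and −0.18, and it was −0.33 on the 6 arrays with spike-in signal and −0.10 between the 2 without it.

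Id3 also differed little. It read 0.19, −0.26, 0.41 and −0.13 in G0 and 0.13, −0.80, −0.42 and 0.42 in G1, with full overlap. The difference was −0.22 (SE 0.33, 95% confidence interval −0.99 to 0.54; limma, adjusted p = 0.954). Between the 2 arrays without spike-in signal, 1 per group, it was 0.00.

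Id2 was read by 3 probe sets. On 1435176_a_at the values were 0.50, −0.94, 0.75 and 0.30 in G0 and −0.11, −1.90, −0.72 and 0.11 in G1. On 1422537_a_at they were 0.13, −1.34, 0.85 and −0.01 in G0 and 0.01, −2.36, −0.86 and 0.56 in G1. Replicate 2 was the lowest of its group on both probe sets and in both groups. The differences were −0.81 and −0.57 (SE 0.55 and 0.72; adjusted p = 0.840 and 0.945 in limma). The third, 1453596_at, did not follow them, differed by −0.16 and was lowest on G1 replicate 4 (adjusted p = 0.980 in limma).

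The array pattern of Id2 recurred in Id3, Smad6 and Tgfb3. With group means subtracted, the values of the 2 closely matching Id2 probe sets correlated at r = 0.99 over the 8 arrays. Id2 1422537_a_at correlated with Id3 at r = 0.95 and with Tgfb3 at r = 0.91. Smad6 correlated with 1435176_a_at at r = 0.87 and with 1422537_a_at at r = 0.81. These pairs were picked for their height and are given as a description. Among the 193 pairs of probe sets of different genes, r ran from −0.97 to 0.95. As high were Tgfb1 1420653_at with Tgfb3 (r = 0.90) and Id4 1423259_at with Tgfb2 1450923_at (r = 0.89). The lowest was Smad3 1454960_at with Tgfb3 (r = −0.97). Next came Smad7 1423389_at with Id3 and with Tgfb1 1420653_at (r = −0.91 each). The 8 arrays were not all labelled in 1 batch, and whether this plays a part in the correlations was not tested. Of 18193 genes, 106 were closer to Id2 1422537_a_at than Id3 was, 351 were closer than Tgfb3 and 1299 closer than Smad6. For 1435176_a_at, 341 were closer than Id3, 759 closer than Tgfb3 and 576 closer than Smad6. G1 replicate 2 was the lowest of the 8 arrays for 7 of the 21 member probe sets, and for 17.2% of all probe sets, the highest share of any array.

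**Figure D4:**
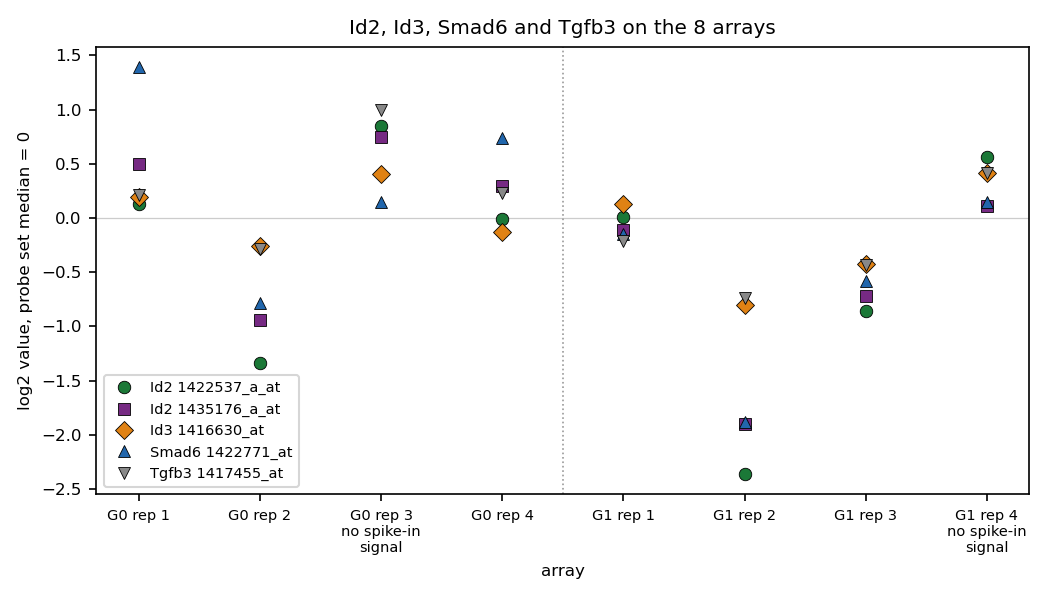
Log2 values of 2 Id2 probe sets, Id3, Smad6 and Tgfb3 on the 8 arrays (x axis), probe set median 0. All 5 are lowest on G1 replicate 2, where they run from −2.36 to −0.74, and in G0 all 5 are lowest on replicate 2.

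Among all represented genes, the patterns most like Id3 with group means subtracted were those of Pard6a (r = 0.997), Gtse1 (r = 0.990), Ipp (r = 0.989), Zkscan14 and Hdhd2 (r = 0.987 each, 8 arrays). With all values used, Pard6a stayed at r = 0.997 while Gtse1 was at r = 0.146. For Id1 the closest were Prps1, Pirb, Csmd1, Rhpn1 and Esrp2 (r = 0.965 to 0.953). With all values Prps1, Pirb and Rhpn1 fell to r = −0.661, −0.399 and 0.028, while Csmd1 and Esrp2 stayed at 0.934 and 0.875. The closest to Id1 with all values were Tox4 (r = 0.968), Fbxo4, Ktn1, Ugp2 and Apobec1. For the representative Id2 probe set, 1453596_at, the closest with group means subtracted were Bbs12, Ttf2, Taf2, Ank3 and Suz12 (r = 0.986 to 0.970). With all values these ran from r = 0.411 (Ttf2) to 0.969 (Suz12). Suz12 was then first, ahead of 1700030K09Rik, Zfp280c, Aasdh and Tcf7l2. The closely matching Id2 probe sets had other lists. For 1422537_a_at they were Myo7b, Gosr1, Ddb2, Kmt5c and Troap (r = 0.996 to 0.985, with all values 0.603 to 0.984). For 1435176_a_at they were Cebpg, Slc25a46, Trpc2, Cyp4f16 and Troap (r = 0.996 to 0.988, with all values 0.416 to 0.974). For Id3 the 5 closest with all values also held Zfp212 and Farp1. These lists were picked as the highest of 18193 genes over 8 arrays.

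Id4, the family member best known from neural and mammary cells, was the most variable Id gene. Its probe set 1423259_at had the largest difference of all members, −1.87, and read 2.33, −1.14, 1.33 and 2.92 in G0 and −0.29, −1.17, 0.29 and −0.90 in G1. In G0 3 arrays stood above every G1 array, and G0 replicate 2 lay near the lowest of them. The difference did not pass (SE 0.87, 95% confidence interval −3.91 to 0.17; limma, adjusted p = 0.727). With single arrays left out it ran from −2.69 without G0 replicate 2 to −1.23 without replicate 4 of either group (adjusted p = 0.500, and 0.755 and 0.774, in limma). The other Id4 probe sets differed by −0.23 and −1.13 (adjusted p = 0.990 and 0.924 in limma), and their within-group SDs were at the 96.2 and 97.3 percentiles of all probe sets. With single arrays left out the latter difference, on 1450928_at, ran from −1.84 without G0 replicate 3 to −0.30 without G1 replicate 2.

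The rest of the pathway was read by 8 further lists with 101 genes measured, each by 1 probe set. In limma 0 of the 101 passed over all probe sets, where 0.522% of all genes did. At an unadjusted p under 0.05, 2 were higher and 8 lower, against 4.33% and 3.74% of all genes. In the spike-in batch fit 0 passed, where 1.01% of all genes did, and 4 were higher and 13 lower at that p, against 6.04% and 6.37% of all genes. The median difference was −0.14, with −0.06 over all genes. Of the 101, 65 had a negative difference, as did 10065 of all 18193 genes. The counts of each list below are to be read beside these shares.

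Among the genes that store and activate latent TGF-beta, 8 of 10 measured had a negative difference. Of these 3 had an unadjusted p under 0.05, and 0 passed in limma. Itgb8, the integrin subunit that releases TGF-beta from its latent complex, read 1.34, 0.44, 0.54 and 0.09 in G0 and −0.09, −1.19, −0.69 and −0.80 in G1, with no overlap (difference −1.29, SE 0.34; limma, adjusted p = 0.351). Itgb5, another integrin subunit, differed by −0.82 (SE 0.28, adjusted p = 0.576 in limma), and its other 3 probe sets by −0.60, −0.69 and −0.75. Ltbp3, a latent TGF-beta binding protein, differed by −0.48 on 1418049_at without overlap of the groups (limma, adjusted p = 0.684). Its other 3 probe sets differed by −0.35, −0.50 and −0.53, and there the groups overlapped. The list's median was −0.38.

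TGF-beta response genes had the same median of −0.38, with 16 of 20 negative, 3 of them at an unadjusted p under 0.05, and 0 passed in limma. In the spike-in batch fit 5 lower and 1 higher had such a p, and 0 passed. Outside the naming rule, and chosen after the values were seen, Snai1, a repressor of epithelial genes, had the lowest adjusted p of the 101 pathway genes in that fit (difference −0.75; limma, adjusted p = 0.0944, and 0.854 with the labelled batch). It was highest on the 2 arrays without spike-in signal, at 1.58 and 1.09. Col3a1, a fibrillar collagen, read 0.12, 0.20, 0.41 and 0.51 in G0 and −0.48, −0.73, −0.29 and −0.12 in G1, and all G1 values lay below all G0 values (difference −0.72, SE 0.21; limma, adjusted p = 0.432). On its other probe set the difference was −0.48 (limma, adjusted p = 0.744), and there too the groups did not overlap. Bhlhe40, a basic helix-loop-helix repressor, differed by −0.98 (SE 0.37, adjusted p = 0.640). Klf10, first described as a TGF-beta inducible early gene, differed by −0.49 (adjusted p = 0.661; limma in both).

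Among the receptors 9 of 12 differences were negative and 1 gene had an unadjusted p under 0.05. This was Eng (endoglin), a co-receptor of TGF-beta and BMP9, at −0.67 (SE 0.24, adjusted p = 0.615 in limma), and −2.05 on its other probe set (adjusted p = 0.379). The groups did not overlap on either. Tgfbr2, the receptor that binds TGF-beta, differed by −0.58 and Bmpr1b by −0.45 (adjusted p = 0.920 and 0.871 in limma). Without replicate 4 of either group Tgfbr2 was at 0.06, and its other probe sets differed by −0.88 and −0.49. The other Bmpr1b probe sets had positive differences, 1.05 and 0.53. Of 17 other Smads and Smad regulators 1 had an unadjusted p under 0.05. It was Skil (SnoN), a repressor of Smad complexes and itself a TGF-beta target, at −0.55 on 1 probe set and −0.90 on the other (limma, adjusted p = 0.665 and 0.362), without overlap of the groups on either. Bambi, a decoy receptor, differed by 0.71 and Tgif1, a Smad corepressor, by −0.42 (adjusted p = 0.724 and 0.888 in limma).

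The BMP, GDF and activin ligands had no common direction, with 6 of 13 positive. Bmp5 differed by 1.95 (SE 0.64, adjusted p = 0.536 in limma) and its other probe sets by 0.28 and 0.92. Amh, the anti-Müllerian hormone gene, differed by 1.70 (adjusted p = 0.543 in limma) and did not overlap between groups. Inhbb, an activin subunit, differed by 1.76 with values from −2.82 to 1.27 in G0 (adjusted p = 0.775 in limma). Its other probe set differed by 0.77. Of 11 secreted antagonists 0 had an unadjusted p under 0.05 in limma, and 2, Bmper and Fstl1, did in the spike-in batch fit. Bmper, Fst (follistatin) and Fstl1 differed by −0.55, 1.03 and −0.39 (adjusted p = 0.790, 0.831 and 0.832 in limma). The other probe sets of Fst and Fstl1 differed by 0.09 and −0.35. Of 8 further BMP response genes 0 did. The transcription factors Dlx5, Atoh8 and Msx2 differed by 0.44, −1.06 and 0.48 (adjusted p = 0.888, 0.938 and 0.950 in limma). The other Msx2 probe set differed by 0.91.

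The partners of the Id proteins did not change past the threshold. Of 10 basic helix-loop-helix and Ets genes 0 passed in limma and 0 had an unadjusted p under 0.05. Tcf3, which encodes the E proteins E12 and E47, differed by 0.33, Hes1 by 0.97 and Ets2 by −0.24 (adjusted p = 0.827, 0.869 and 0.919 in limma). The other Tcf3 probe sets differed by 0.31 and 0.11. The other Ets2 probe sets had opposite signs, at 0.81 on 1437809_x_at without overlap of the groups and at −0.43 on 1447685_x_at. Hes1 scattered from −1.80 to 1.62 within G0.

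**Figure D5:**
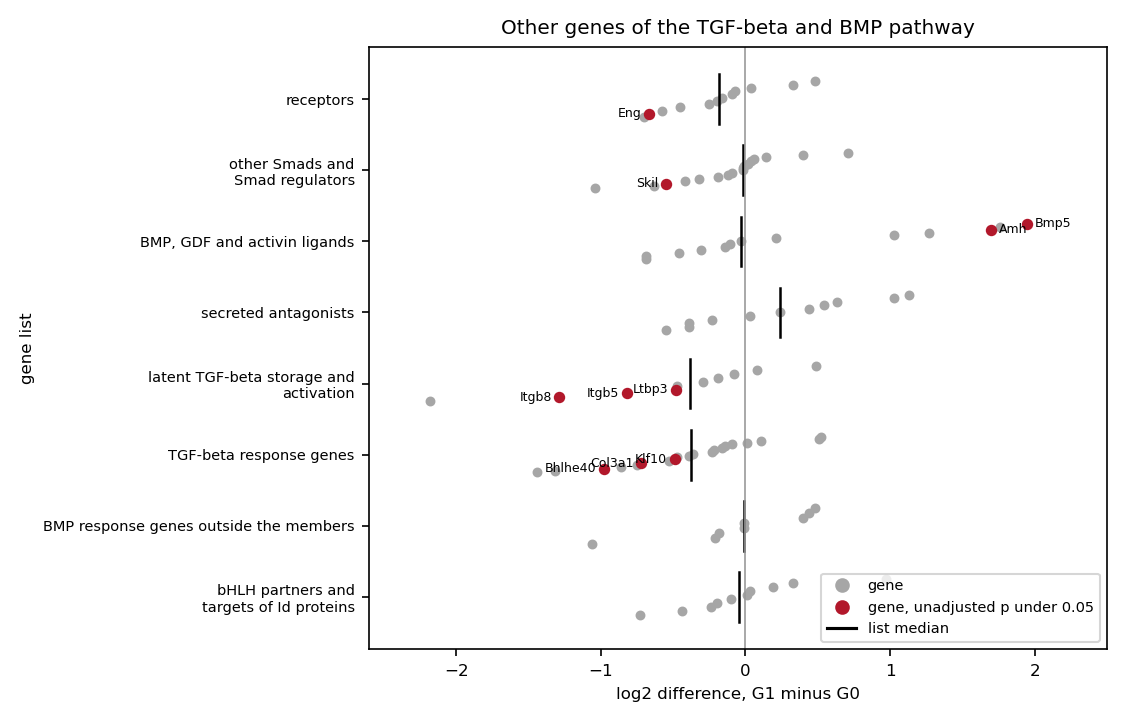
Log2 difference, G1 minus G0, of the genes in the 8 further lists (x axis), each gene 1 point, red for an unadjusted p under 0.05 and a black bar for the list median. Red points lie left of 0 in latent TGF-beta storage, the response genes, the receptors (Eng) and the other Smads and Smad regulators (Skil). The red points right of 0 are Bmp5 and Amh.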

How the data were processed

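The deposited values are log2 expression, 1 column per array, and the submitters' processing notes name MAS5. Before deposit the median of each probe set over the 8 arrays was set to 0 (largest absolute median 5e-07), a step that no source used here describes. Of 45101 probe sets 64 controls were left out. No filter on level was possible, and the number of arrays limits the precision. Symbols were updated through Entrez identifiers (34741 of 34945 probe sets with 1 symbol). A gene outside the members was represented by 1 probe set, by suffix and then number.

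Differences, G1 minus G0, were tested two-sided with limma 3.58.1 in R 4.3.3 (lmFit, eBayes with trend), with the labelled batch as covariate and Benjamini-Hochberg adjustment over 45037 probe sets, threshold 0.05. Named are all members and, per list, the genes past the threshold and the 3 with the smallest p, plus the 5 genes most like Id1, Id2 and Id3. The members and lists were chosen with earlier results of these data known. Alternatives are in the closing section. By title, the correlation of deviations of same-numbered replicates ran from −0.14 to 0.11. With the titles of G0 replicates 3 and 4 exchanged, it would be 0.07, 0.11, 0.10 and 0.31 for G1 replicates 1 to 4. All other pairs lay at 0.04 or below. Whether replicates were paired was not tested, and no fit used the exchanged pairing. The highest of the 16 correlations was between G0 replicate 3 and G1 replicate 4, the arrays without spike-in signal (0.31).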

Additional observations from a re-analysis of the deposited data

Results flagged for a closer look

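Within-group outlying arrays were looked for in 42 groups of 4 arrays, and 3 were found. Chance gives about 1 in 20. Tgfb1 1420653_at was far above its group on G0 replicate 3 (2.57) and on G1 replicate 4 (3.05), the 2 arrays without spike-in signal. Tgfb2 1438303_at was far below its group on G0 replicate 4 (−2.11).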

How the results depend on the processing

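No member probe set and no pathway gene passed in limma under any of the alternatives run, each array left out in turn included (0 to 0 for both counts). The lowest adjusted p of a member was 0.197, for Tgfb1 1445360_at with the spike-in batch as covariate. At an unadjusted p under 0.05 the member count was 1. It was 2 on the arrays with spike-ins only, 3 with the spike-in batch (Tgfb1 1445360_at, Smad7 1443771_x_at and Tgfb3), 3 with the replicate block (Tgfb1 1445360_at, Smad6 and Id4 1423259_at), and ran from 1 to 3 with single arrays left out. The pathway count was 10, 17 with the spike-in batch, and 5 to 11 with single arrays left out (6 without G0 replicate 1 and 5 without G1 replicate 2). Of 21 members, 14 kept their direction under the other alternatives and 11 with single arrays left out. In labelling batch 1 alone the sign turned for Id2 1453596_at (0.15), Id4 1423260_at (0.33), Smad7 1423389_at (0.40), Tgfb1 1420653_at (−0.79), Tgfb2 1450922_a_at (0.11) and Tgfb2 1450923_at (0.00). On the arrays with spike-ins it turned for Id4 1423260_at (0.76) and Tgfb2 1438303_at (0.11), and with array weights for Id4 1423260_at (0.62). With single arrays left out, differences ran from −0.43 to 0.15 for Id2 1453596_at, −1.04 to 0.66 for Id4 1423260_at, −0.01 to 1.40 for Smad3 1450471_at, −0.72 to 0.22 for Smad3 1450472_s_at, −0.39 to 0.40 for Smad7 1423389_at, −0.79 to 1.05 for Tgfb1 1420653_at, −1.57 to 0.17 for Tgfb2 1423250_a_at, −0.64 to 0.16 for Tgfb2 1438303_at, −0.96 to 0.58 for Tgfb2 1450922_a_at and −1.27 to 0.22 for Tgfb2 1450923_at. The cause was not tested. Without replicate 4 of either group the difference comes from labelling batch 1 only.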
